A study of Mus musculus with 12 samples.

Results

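A set of 10 genes that encode granulocyte granule proteins and calgranulins were examined in blood-forming stem cells of mice with and without the oncostatin M receptor. They were taken by symbol (Mpo, Elane, Prtn3, Ctsg, Camp, Ngp, Ltf, Lcn2, S100a8 and S100a9) from a deposited table of 43279 genes, and all 10 had a row. The set was chosen by symbol with the normalised counts of the same libraries and their genotype difference already known, so their genotype differences are given as descriptions, and counts of genes called are printed beside the share of all genes with nothing read from them. Each library came from 1000 cells of a different adult naive mouse, sorted from bone marrow of femur, tibia and ilium by the gate Lin- KIT+ SCA-1+ FLT3- CD48-, in which long-term and short-term repopulating stem cells lie. The controls were wild-type C57BL/6 mice (6 libraries, numbered 1 to 6). The others were Osmr-/- mice, in which the Osmr gene is knocked out (5 libraries, numbered 1, 2, 3, 5 and 6, called knock-outs below); a knock-out number 4 is labelled and was not analysed here. The sources used here state neither sex nor exact age, nor the strain background of the knock-outs. The study asked how loss of oncostatin M receptor signalling in the bone marrow surroundings bears on stem cells. The labels name no cell type to which the knock-out is limited.

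Granules of neutrophils are filled in waves as the cells mature. Primary (azurophil) granules form in promyelocytes and carry myeloperoxidase and the serine proteases neutrophil elastase, proteinase 3 and cathepsin G. Specific granules form later, in myelocytes, and carry the cathelicidin CAMP, NGP, lactoferrin and the siderophore-binding protein lipocalin 2. S100A8 and S100A9 join as calprotectin, a calcium- and zinc-binding protein of the neutrophil and monocyte cytosol that acts as an alarmin when released. Stem cells have no granules, and RNA of primary granule genes is known from the progenitors that leave the stem cell pool.

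The libraries held 9.50 to 22.1 M reads counted on genes, and values below are read counts divided by a per-library size factor (normalised counts). Markers of the sorted cells, among them Kit (3312 to 5183) and Ly6a, which encodes SCA-1 (3297 to 9513), were present in every library, and the sum over 12 such markers was 25057 to 35077 in the wild types and 26273 to 38594 in the knock-outs. Osmr had 13 reads over the wild types and 4 over the knock-outs, too few to check the genotype labels. Libraries numbered 1 to 3 and 4 to 6 stood apart. Of 13358 tested genes, 7.29% passed limma's test (adjusted p under 0.05) for a term that set these numbers against each other. Of the granule and alarmin genes, 6 passed the filter on low values and 0 passed this test, too few genes to set against that share. On the log2 scale, 4 to 6 minus 1 to 3, the term was -3.50 for Ngp, -2.41 for S100a8 and -2.33 for Camp. It was -2.01 for S100a9, -0.07 for Prtn3 and 0.87 for Mpo. Numbers 1 to 3 include knock-out 3, which for Ngp, S100a8, Camp and S100a9 was 23.2 to 61.9 times the next library. The part of knock-out 3 in these terms was not tested. The labels do not say what the numbers mark, so values are also given within each set. The summed erythroid markers had 17340 to 57661 in the wild types against 12538 to 18415 in the knock-outs. Car2 (14585 to 41773 against 8959 to 14923) and Car1 (1711 to 22648 against 225 to 2601) made up most of that sum. Wild types 4, 5 and 6 had 14585, 15510 and 16135 of Car2, near the knock-outs. Hbb-bt went the other way (150 to 697 against 707 to 1567). The part of erythroid RNA in the results was not tested.

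The start regions of the genes were read for 4 motifs known from granulocyte genes or from transcription starts. The letters searched, on both strands of the 250 bases before each RefSeq gene start (GRCm38.p6), were GGAAGT (a core bound by ETS factors such as PU.1), TTGCNNAA (bound by C/EBP factors), AACGG (a MYB core) and TATAA (the TATA box). None of these patterns overlapped another in the 10 windows. All 10 genes had an entry. GGAAGT occurred in 6 of the 10 windows and in 19.7% of 32851 promoters of the same length, TTGCNNAA in 4 of 10 and 9.56%, AACGG in 2 of 10 and 14.5%, and TATAA in 4 of 10 and 22.8%. A match is a description of letters and not of binding.

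Prtn3 and Elane are shown because these neighbours on chromosome 10 carry a like order of matches and yet had very different RNA levels, Ctsg because it had no read in any library, and S100a8 and S100a9 because they made up most of the RNA of the set, Prtn3 aside, in 1 knock-out library. Each run is the stretch of its window that lies outside every exon of GENCODE M21 (same build, mm10), written 5′ to 3′ on the gene's strand, with whole motif matches in capitals. Prtn3 lies at chr10:79879417-79879613 (plus strand), Elane at chr10:79886062-79886246 (plus), Ctsg at chr14:56102575-56102824 (minus), S100a8 at chr3:90668821-90668977 (plus) and S100a9 at chr3:90695722-90695971 (minus).
Prtn3 promoter: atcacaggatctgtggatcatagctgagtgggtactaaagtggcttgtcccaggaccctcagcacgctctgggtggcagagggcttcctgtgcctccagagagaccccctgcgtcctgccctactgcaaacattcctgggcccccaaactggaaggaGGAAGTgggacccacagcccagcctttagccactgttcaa
Elane promoter: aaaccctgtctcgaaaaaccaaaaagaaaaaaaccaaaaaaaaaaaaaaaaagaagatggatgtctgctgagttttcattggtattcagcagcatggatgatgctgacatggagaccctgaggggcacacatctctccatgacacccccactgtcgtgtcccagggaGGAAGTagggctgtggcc
Ctsg promoter: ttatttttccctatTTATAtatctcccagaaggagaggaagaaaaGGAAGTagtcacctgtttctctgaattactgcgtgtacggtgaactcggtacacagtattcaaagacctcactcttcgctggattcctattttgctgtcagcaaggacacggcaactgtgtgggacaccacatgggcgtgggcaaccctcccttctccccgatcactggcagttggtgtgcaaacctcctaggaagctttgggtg
S100a8 promoter: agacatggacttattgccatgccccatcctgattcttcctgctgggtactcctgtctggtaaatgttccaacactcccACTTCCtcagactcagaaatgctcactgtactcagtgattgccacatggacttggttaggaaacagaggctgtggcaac
S100a9 promoter: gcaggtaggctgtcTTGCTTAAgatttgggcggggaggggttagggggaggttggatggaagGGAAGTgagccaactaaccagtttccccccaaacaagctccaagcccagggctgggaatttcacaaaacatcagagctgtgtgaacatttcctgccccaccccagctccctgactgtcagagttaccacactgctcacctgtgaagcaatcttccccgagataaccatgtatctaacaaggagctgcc

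In Prtn3, GGAAGT began at -93, AACGG at -55 and TATAA at -32, counted from the RefSeq start. In Elane the same letters began at -83, -50 and -31, all on the strand of the gene. No other window among the 10 held all of these patterns. Of the printed Prtn3 and Elane stretches, the capitals show GGAAGT; the other matches lie wholly or partly in bases that GENCODE M21 places in an exon. The Ctsg window held GGAAGT at -205 and TATAA, on the other strand, at -236. S100a8 held GGAAGT at -172 on the other strand and TATAA at -30, and S100a9 held GGAAGT at -188 and TTGCNNAA at -236. Matches to TTGCNNAA were otherwise found in Ngp, Ltf and Lcn2, and Camp held no match to any of the 4 patterns.

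**Figure D1:**
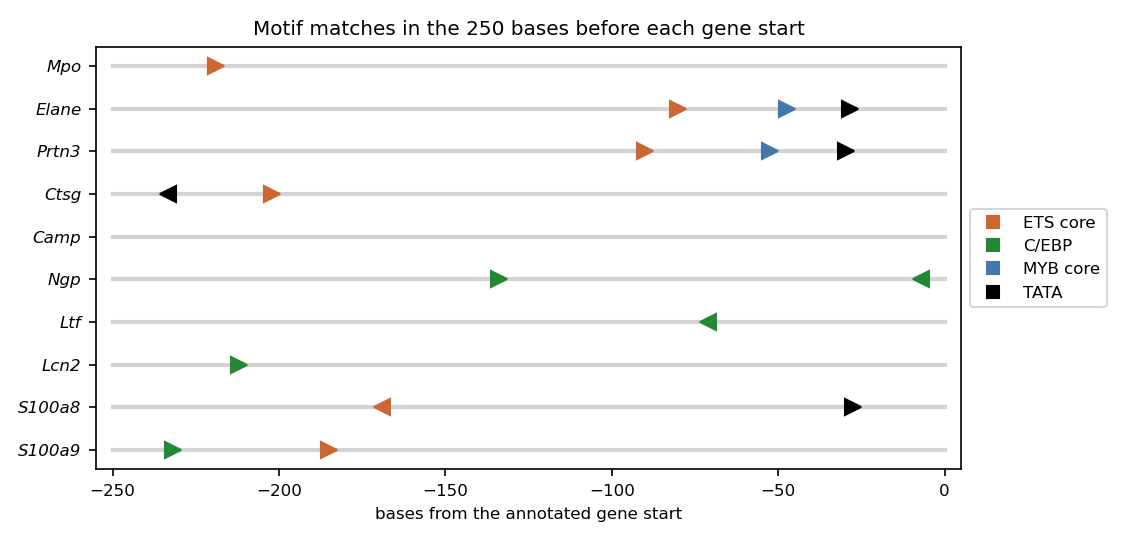
Matches to the 4 motifs (colours) in the 250 bases before the RefSeq start of each of the 10 genes; the horizontal axis is the distance from the start in bases, and an arrow points right where the letters lie on the gene's strand and left on the other. Prtn3 and Elane show an ETS core, a MYB core and a TATA match in the same order, and Camp shows none.

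Among the primary granule genes, only Prtn3 was abundant. Prtn3, which encodes proteinase 3 (chr10:79874476-79883174, plus strand, in GENCODE M21), had 3207 to 5148 normalised counts in the wild types, with a median of 3622. The knock-outs numbered 1, 2, 3, 5 and 6 had 5522, 4718, 4193, 4596 and 5126. Every library held Prtn3 RNA at a like level, and the genotypes overlapped through wild types 3 and 6. The means were 3861 ± 744 (SD, n = 6) and 4831 ± 510 (SD, n = 5), a log2 difference of 0.34 (SE 0.19).

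Per kilobase of exon, Prtn3 stood at 2229 ± 430 (SD, n = 6) normalised counts in the wild types and 2789 ± 294 (SD, n = 5) in the knock-outs. This mean level was rank 354 among the 12536 tested genes with a GENCODE position. Prtn3 was also steady: its SD within genotypes, on the log2 scale, was 0.22 against a median of 0.71 over all tested genes, and 1.02% of tested genes varied less. The tested genes were not matched for level in this comparison, and Prtn3 was rank 438 among them by mean count. Within numbers 1 to 3 its log2 difference was 0.26 and within numbers 4 to 6 it was 0.42. Prtn3 overlaps Plppr3 on the other strand in GENCODE M21. The sources used here do not state whether reads were counted by strand, so reads of the overlapping genes may not be told apart.

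Elane, the gene of neutrophil elastase and the next gene of the family along the chromosome (chr10:79886247-79888215), was detected in 3 of 11 libraries. It had 21 reads in wild type 5, 21 in knock-out 2 and 49 in knock-out 3, or 21.2, 24.8 and 63.2 normalised counts, and none in the others. Those 3 libraries carried 10422 Prtn3 reads against 91 of Elane. Ctsg, which encodes cathepsin G (chr14:56099881-56102574, minus strand), had no read in any library. A floor of 3 reads per library corresponds to 1.56 to 3.87 normalised counts, for counting error only, since reads amplified by PCR without molecular identifiers are not independent molecules. At this depth Ctsg was therefore not detectable, and no genotype difference can be read for it.

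The genes around this pair did not share the Prtn3 level. Ptbp1, an RNA-binding protein gene and the nearest tested neighbour before Prtn3, had 936 ± 528 (SD, n = 6) in the wild types and 838 ± 526 (SD, n = 5) in the knock-outs. Med16, a Mediator subunit gene and the nearest after Elane, had 97.6 ± 38.7 and 68.5 ± 34.8. Neither passed limma's test (adjusted p = 0.918 and 0.576).

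Mpo, which encodes myeloperoxidase (chr11:87793581-87804413, plus strand), was low in all libraries. It had 23.2 to 129 normalised counts in the wild types, with a median of 35.9. The knock-outs 1, 2, 3, 5 and 6 had 11.3, 24.8, 11.6, 30.9 and 15.6. The knock-outs sat at the low end and overlapped the wild types through wild type 3 alone, and the highest value was that of wild type 6. Means were 53.2 ± 39.5 (SD, n = 6) and 18.9 ± 8.66 (SD, n = 5), from 361 reads over the wild types and 86 over the knock-outs. The log2 difference was -1.31 (SE 0.62), a 2.48-fold lower level in the knock-outs. It was -0.95 within numbers 1 to 3, where the genotypes overlapped, and -1.56 within numbers 4 to 6, where they did not. Per kilobase, Mpo ranked 10817 among the 12536 genes. An antisense gene, Gm11505, overlaps Mpo, with the same limit on strand as for Prtn3.

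The later-formed genes followed another pattern, in which 1 knock-out library stood far above the other 10. S100a8 (chr3:90668978-90670035, plus strand), a calprotectin subunit gene, had 19.4 to 180 normalised counts in the wild types, with a median of 38.8. The knock-outs 1, 2, 3, 5 and 6 had 271, 346, 10780, 47.4 and 74.2. Knock-out 3 was 31.1 times the next library, knock-outs 2 and 1 came next, and wild type 3 lay above knock-outs 5 and 6. The log2 difference was 2.81 (SE 1.07) with all libraries and 1.55 (SE 0.72) without knock-out 3. In linear terms the means were 60.5 ± 60.0 (SD, n = 6) in the wild types, 2304 ± 4740 (SD, n = 5) in the knock-outs and 185 ± 147 (SD, n = 4) in the knock-outs without number 3.

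S100a9 (chr3:90692632-90695721, minus strand) encodes the other calprotectin subunit. It had 20.2 to 121 normalised counts in the wild types, with a median of 61.2. The knock-outs had 102, 125, 7277, 5.15 and 104 in the same order. Knock-out 3 was 58.1 times the next library, and the other knock-outs lay within or beside the wild-type range, knock-out 5 below all of them. The log2 difference was 1.29 (SE 1.22), and without knock-out 3 it was -0.12 (SE 0.83), so its direction rested on that library. Although the subunits act as a complex, without knock-out 3 the S100a8 mean was 185 against 60.5 in the wild types and the S100a9 mean 84.2 ± 53.7 (SD, n = 4) against 65.1 ± 32.7 (SD, n = 6); the difference between the genes was not tested. The nearest tested neighbours, S100a6 (a calcium-binding protein gene, 1290 ± 457 against 1757 ± 513 normalised counts) and Gm4202 (138 ± 109 against 46.4 ± 22.6), did not pass limma's test (adjusted p = 0.399 and 0.247). S100a6 lay 44797 bases before S100a8 and Gm4202 1993705 bases after S100a9, so Gm4202 is not a close neighbour.

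**Figure D2:**
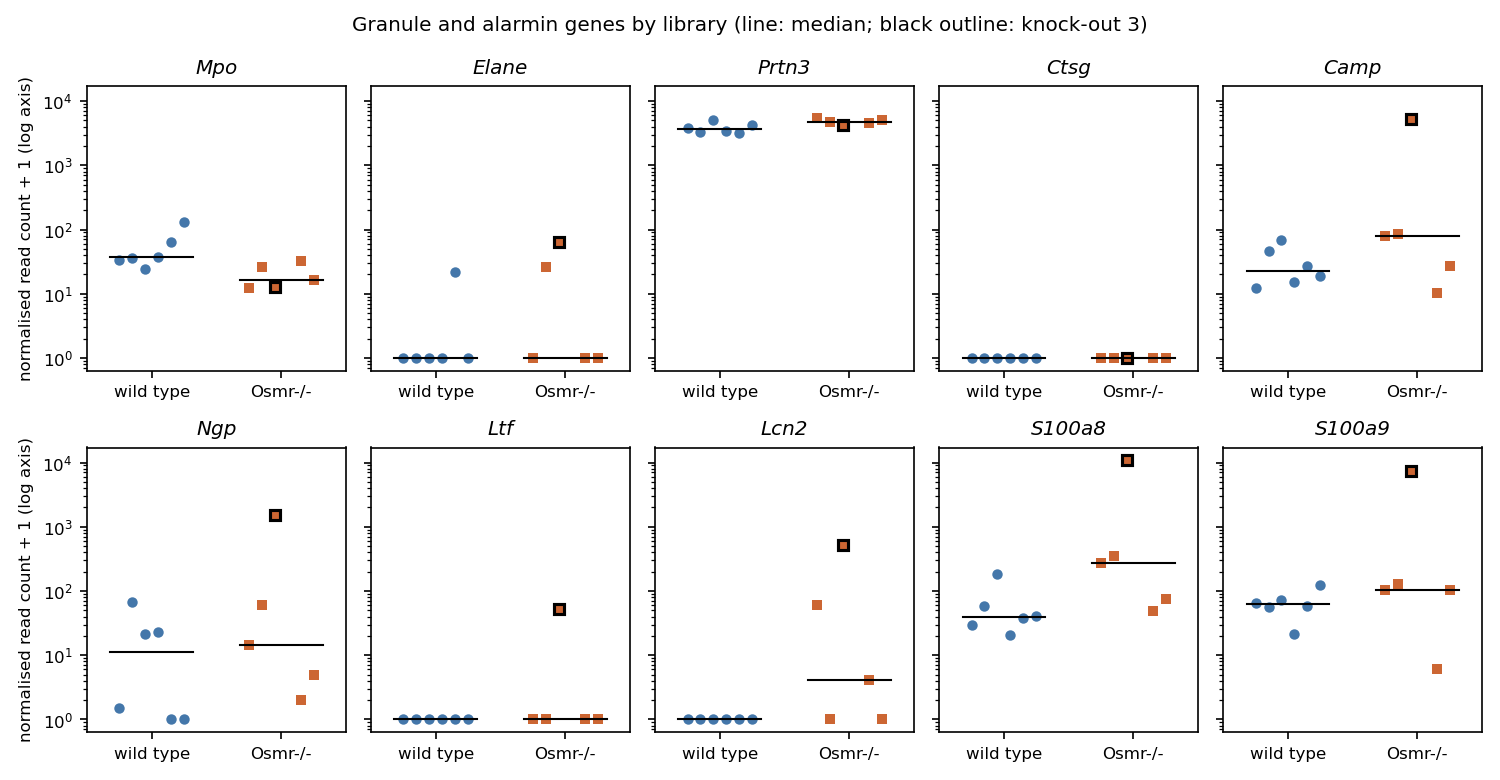
Normalised read count plus 1 on a log axis for each of the 10 genes, with 1 point per library (circles wild type, squares Osmr-/-, in order of library number), a line at the median and knock-out 3 outlined in black. Prtn3 lies between 3207 and 5522 in every library, Ctsg is at 0 throughout, and knock-out 3 is the highest library for Elane, Camp, Ngp, Ltf, Lcn2, S100a8 and S100a9 but not for Mpo or Prtn3.

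Camp (chr9:109847379-109849617, minus strand), the gene of the antimicrobial cathelicidin, had 11.4 to 66.5 normalised counts in the wild types, with a median of 21.9. The knock-outs 1, 2, 3, 5 and 6 had 77.0, 84.0, 5197, 9.27 and 26.3. Knock-out 3 was 61.9 times the next library, knock-outs 1 and 2 lay just above the wild types, and knock-out 5 lay below them. The log2 difference was 1.95 (SE 1.20) with all libraries and 0.52 (SE 0.78) without knock-out 3. Its tested neighbours Nme6, a nucleoside diphosphate kinase gene (1014 ± 303 in the wild types, 750 ± 193 in the knock-outs), and Cdc25a, a cell-cycle phosphatase gene (138 ± 94.9 and 133 ± 94.2), did not pass limma's test (adjusted p = 0.410 and 0.866).

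Ngp (chr9:110419747-110423012, plus strand), which encodes a cathelicidin-related granule protein, had 0 to 66.4 normalised counts in the wild types, with a median of 10.3. The knock-outs had 13.6, 60.3, 1540, 1.03 and 3.90. Knock-out 3 was 23.2 times the next library, which was wild type 2, and the remaining knock-outs lay within the wild-type range. The log2 difference was 2.14 (SE 1.63) and 0.68 (SE 1.47) without knock-out 3.

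Lcn2 (chr2:32384633-32388252, minus strand), the gene of lipocalin 2, had no read in any wild type. The knock-outs had 60.0, 0, 517, 3.09 and 0 normalised counts, from 53, 0, 401, 3 and 0 reads. Against the highest wild-type floor (3 reads per library), knock-out 3 was at least 167-fold higher and knock-out 1 at least 19.3-fold higher, while knock-outs 2 and 6 held no read. Ltf (chr9:111019271-111042767, plus strand), which encodes lactoferrin, had 40 reads in knock-out 3, or 51.6 normalised counts, and none elsewhere. By the same floor, that value was at least 16.6-fold higher than in the wild types and at least 14.5-fold higher than in the other knock-outs. The Lcn2 and Ltf folds are bounds for counting error only, since reads amplified by PCR are not independent molecules.

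Per kilobase and averaged over all 11 libraries, the levels of the tested genes fell in the order Prtn3 (2484), S100a8 (1556), S100a9 (1394), Camp (668), Ngp (129) and, lowest, Mpo. Knock-out 3 held most of the RNA of the 4 genes in the middle of that order. In the wild types alone, the levels per kilobase were 125 ± 62.6 for S100a9, 87.2 ± 86.5 for S100a8, 39.6 ± 28.4 for Camp, 15.5 ± 11.5 for Mpo, 14.8 ± 21.1 for Ngp and 3.59 ± 8.79 for Elane (SD, n = 6). Neighbours in this order after Prtn3 differed by less than the larger of their SDs over libraries, though some differed by more than the smaller.

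The share of all counted reads that fell on the 9 genes other than Prtn3 was 0.208% in knock-out 3 (95% Wilson interval 0.205% to 0.211%, counting error only) and 0.000854% to 0.00503% in the other 10 libraries. Of the normalised sum of these 9 genes in knock-out 3, S100a8 made up 42.4%, S100a9 28.6%, Camp 20.4%, Ngp 6.05% and Lcn2 2.03%. Elane gave 0.248%, Ltf 0.203% and Mpo 0.0456%. This sum, which leaves out Prtn3, was thus made of calgranulin and specific granule RNA, with almost none from Elane, Mpo and Ctsg. Prtn3, itself a primary granule gene, had 4193 normalised counts in knock-out 3, beside 10780 for S100a8 and 1540 for Ngp. Prtn3 took 0.0342% of the reads of knock-out 3, within the range of 0.0288% to 0.0512% in the other libraries. These are bulk libraries, in which more cells of a type and more RNA per cell cannot be told apart.

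Of the 10 genes, 6 passed the filter on low values (at least 10 normalised counts in at least 5 libraries): Mpo, Prtn3, Camp, Ngp, S100a8 and S100a9. None of the 6 passed limma's test between genotypes (adjusted p under 0.05 over all 13358 genes), beside 0.0225% of all tested genes, and 2401 genes had an unadjusted p under 0.05. edgeR's quasi-likelihood test on the recovered reads also called 0 of 6, beside 0.015%, and limma with the number sets as a covariate 0 of 6, beside 2.52%. DESeq2 on the same reads gave an adjusted p to 4 of the 10 genes and had 1 of them (Lcn2) under 0.05, beside 4.27% of all genes with such a value. In the authors' deposited table, 0 of the 4 genes with an adjusted p passed 0.05, beside 4.46% of its genes. None of the 6 genes separated the genotypes over all libraries, beside 2.52% of tested genes.

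Within numbers 1 to 3, Camp, S100a8 and S100a9 were higher in every knock-out than in every wild type (3 of 6, beside 13.5% of tested genes). Within numbers 4 to 6 the same held for Prtn3 and S100a8 (2 of 6, beside 14.4%), and Mpo was lower in every knock-out (1 of 6, beside 13.7%). S100a8 alone did so in both sets, beside 3.64%. The log2 difference of S100a8 was 3.89 within numbers 1 to 3 and 0.92 within 4 to 6. For S100a9 the corresponding values were 2.82 and -1.07, for Camp 3.27 and -0.23, and for Ngp 3.10 and 0.16. Only the set of numbers 1 to 3 contains knock-out 3. Since the genes were chosen with this contrast in view, nothing further is read from these counts.

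**Figure D3:**
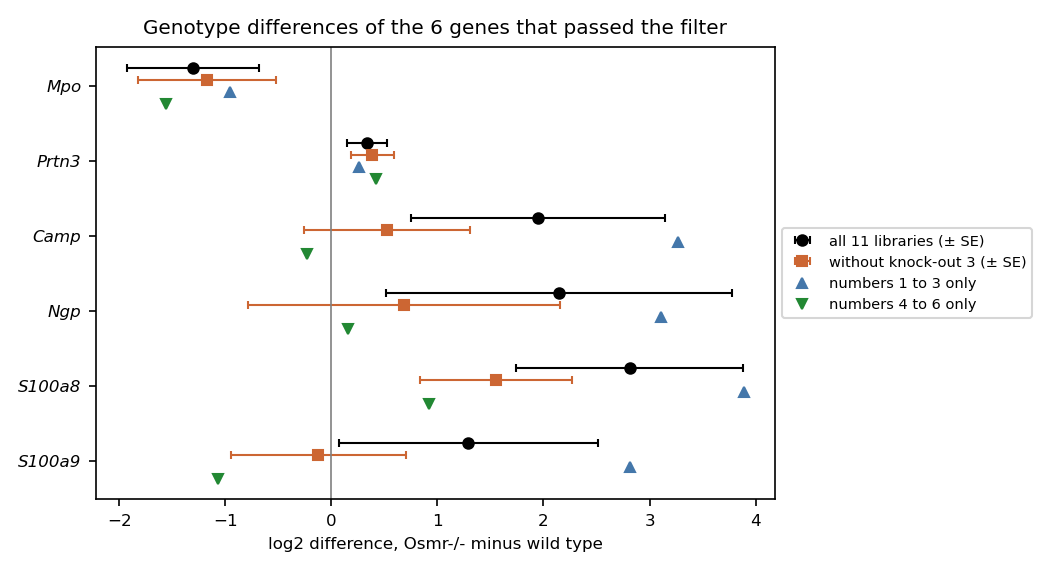
Log2 difference between Osmr-/- and wild type for the 6 genes that passed the filter, on the log2(normalised count + 1) scale, with all 11 libraries and without knock-out 3 (points with bars of 1 SE) and within library numbers 1 to 3 and 4 to 6 (triangles, no error shown). Prtn3 stays between 0.26 and 0.42 and Mpo between -1.56 and -0.95, while S100a9 moves from 1.29 to -0.12 when knock-out 3 is left out.

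In the authors' deposited table, fold changes of knock-out over wild type were given for 9 of the genes, and p-values for Mpo, Elane, Prtn3 and Lcn2. The authors' deposited table listed Mpo at a log2 change of -1.10 (SE 0.415), Prtn3 at 0.31, Lcn2 at 0.34 and Elane at 0.24, all with a p-value. In the authors' deposited table, Camp (1.44), Ngp (0.68), Ltf (0.33), S100a8 (1.61) and S100a9 (1.39) had a log2 change and no p-value. DESeq2 withholds a p-value from genes in which 1 sample has a large Cook's distance, a measure of how far that sample moves the fit. In a DESeq2 fit of the recovered reads, these 5 genes had distances of 55.3 (Camp), 54.6 (S100a9), 52.2 (S100a8), 40.0 (Ngp) and 15.2 (Ltf), each reached in knock-out 3 and each past the limit of 8.02. The distance of Lcn2 was 3.51, so it kept its p-value. Such distances were found for 777 of 26110 genes, with 44 to 91 genes per library and 71 in knock-out 3. That fit gave log2 changes of 5.25 for S100a8, 5.17 for Camp, 4.55 for S100a9 and 4.16 for Ngp. It gave -1.49 for Mpo and 0.32 for Prtn3. The deposited changes were smaller in size for all of these but Prtn3, which was alike, and the reason was not tested. They also compare whole groups, unlike the folds of 1 library over a floor given for Lcn2 and Ltf.

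Few other genes stood as far apart in knock-out 3. Among the 13358 tested genes, 4 were over 10 times higher in knock-out 3 than in any other library (0.0299%), and these were S100a8, S100a9, Camp and Ngp. Without the filter, and at 100 or more normalised counts, 9 genes met this rule in knock-out 3 and 0 to 4 genes in each other library. The 9 were the same 4 genes with Chil3, Retnlg, Wfdc21, Lrrc16a and RP23-267M9.1. Chil3 (a chitinase-like protein of neutrophils and macrophages) had 366 normalised counts in knock-out 3 and at most 16.8 elsewhere, Retnlg (resistin-like gamma, a neutrophil gene) 327 and at most 14.7, and Wfdc21 (a whey acidic protein domain gene) 290 and at most 10.2.

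Most markers of mature neutrophils had no read in knock-out 3, as in most libraries. Of 10 markers, 8 were at 0 in knock-out 3 (Ly6g, Mmp8, Mmp9, Cxcr2, Il1r2, Cxcr1, Mrgpra2b and Stfa2l1), against 5 to 8 in the wild types and 5 to 9 in the other knock-outs. Csf3r, the receptor of granulocyte colony-stimulating factor, had 543 in knock-out 3 and 88.7 to 396 elsewhere, and with Retnlg made up its summed level of 870. That sum was 97.7 to 365 in the wild types and the highest of the 11 libraries in knock-out 3. The monocyte sum was lowest in knock-out 3 (612, against 877 to 1949 in the wild types). The eosinophil sum of knock-out 3 was 223, below 233 in 1 wild type, with 4 of 8 markers at 0 (Epx, Prg3, Il5ra and Ear6), against 3 to 7 in the other libraries. Of that list, Prg2, an eosinophil granule protein gene, had 82.5 in knock-out 3 and at most 33.1 elsewhere, and Ear1, an eosinophil ribonuclease gene, 59.3 there and 0 elsewhere. Itgam, which encodes the CD11b that the sort removed, had 16.8 normalised counts in knock-out 3 and up to 127 in another knock-out, and the sum over the 12 markers of the sorted cells was 27150. The part of other cells in the high values of knock-out 3 was not tested.

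**Figure D4:**
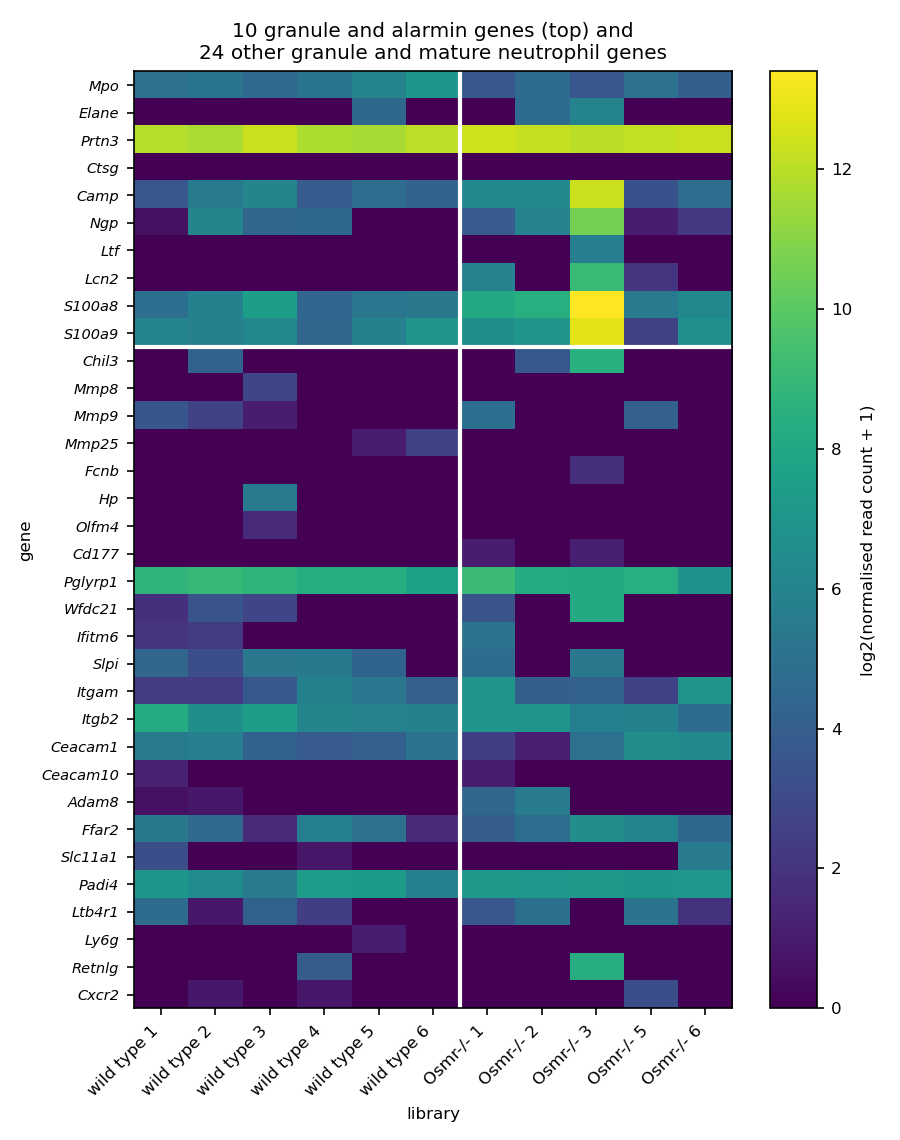
Level of the 10 genes (above the white line) and of 24 other genes of specific and gelatinase granules and mature neutrophils (below) in each library, as log2(normalised count + 1) by colour; columns are libraries, wild types to the left of the vertical line. Knock-out 3 shows Camp, Ngp, Lcn2, S100a8, S100a9, Chil3, Wfdc21 and Retnlg, while Ly6g, Mmp8, Mmp9 and Cxcr2 are at 0 there and at most 28.3 in any library. Others of the 24 are present in knock-out 3, among them Pglyrp1 (280) and Padi4 (148), both within the range of the other libraries, and Ffar2 (98.0, its highest library).

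Other genes of the granule and granulocyte programmes were examined in 7 lists made by function, 156 genes of which 107 passed the filter. In each list limma called 0 genes between genotypes, edgeR called 0, and the 3 genes of lowest p are named. The median log2 difference over all tested genes was -0.05, and 2401 of the 13358 tested genes had an unadjusted p under 0.05 in limma. The counts at an unadjusted p given for each list are to be set beside that number, and nothing is read from them.

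Of the 22 companions of primary granules, 20 passed the filter, 9 above 0 and 11 below, with a median of -0.31 and 7 at an unadjusted p under 0.05 in limma. Plac8, expressed in progenitors and myeloid cells, had 3168 to 12455 in the wild types and 13441 to 16042 in the knock-outs, so the genotypes did not overlap (2.52% of tested genes did not). Its log2 difference was 1.31 (SE 0.31, adjusted p = 0.082 in limma). Npc2, a lysosomal cholesterol carrier, had 1534 to 2309 in the wild types and 606 to 1248 in the knock-outs, again without overlap, with a log2 difference of -1.05 (SE 0.23, adjusted p = 0.072 in limma). Hexa, a lysosomal hexosaminidase subunit, differed by -1.32 (SE 0.35, adjusted p = 0.105 in limma). With the number sets as a covariate, limma called Plac8 higher and Npc2, Hexa and Serpinb1a lower in the knock-outs (adjusted p = 0.041, 0.038, 0.044 and 0.049). DESeq2 called Plac8 higher and Npc2 and Hexa lower (adjusted p = 0.027, 0.0025 and 0.010).

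Of the 24 companions of specific and gelatinase granules, 8 passed, 4 on each side of 0, with a median of 0.13 and 0 at an unadjusted p under 0.05. Slpi, Padi4 and Ffar2 had the lowest p, with adjusted p of 0.507 to 0.528 in limma. Padi4, which citrullinates histones in neutrophils, had 109 ± 52.9 (SD, n = 6) and 142 ± 4.46 (SD, n = 5). The genes listed here that were high in knock-out 3, namely Chil3, Wfdc21 and Retnlg, did not pass the filter.

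Of the 21 other S100 genes, alarmins and their receptors, 13 passed, 7 above and 6 below 0, with a median of 0.25 and 5 at an unadjusted p under 0.05. S100a1, a calcium-binding protein gene, had 4432 ± 862 (SD, n = 6) and 6443 ± 566 (SD, n = 5), a log2 difference of 0.56 (adjusted p = 0.156 in limma). S100a4, of the same family, differed by 0.90 (adjusted p = 0.202 in limma). Bsg, which encodes a receptor described for S100A9, had 4136 ± 1634 and 2048 ± 689 (adjusted p = 0.133 in limma). Bsg was called lower by limma with the number sets as a covariate (adjusted p = 0.040) and by DESeq2 (0.049), and DESeq2 also called S100a1 higher (adjusted p = 0.047). Ager, an alarmin receptor gene of this list that did not pass the filter, was called lower by DESeq2 (adjusted p = 0.035). It had 0 to 72.4 normalised counts in the wild types and 0 to 1.13 in the knock-outs, and was chosen for mention after its values were seen. The RNA of Tlr4, another calprotectin receptor, ranged from 94.6 to 458 normalised counts over the 11 libraries and was chosen for mention after its values were seen.

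Of 35 transcription factors and cytokine receptors of granulocytes, 30 passed, 18 above and 12 below 0, with a median of 0.14 and 7 at an unadjusted p under 0.05. Meis1, a stem cell homeobox factor gene, had 2778 to 4200 in the wild types and 4267 to 5140 in the knock-outs, without overlap (log2 difference 0.53, adjusted p = 0.154 in limma). Myb, whose product acts on promoters of primary granule genes, had 8053 ± 3576 and 13377 ± 1337 (log2 difference 0.82, adjusted p = 0.137 in limma). Gfi1b, a repressor gene of the erythroid and megakaryocyte lines, differed by -1.39 (adjusted p = 0.129 in limma). DESeq2 called Meis1 higher and Gfi1b lower (adjusted p = 0.025 and 0.029). Cebpa and Cebpe, C/EBP factor genes of early and late granulocytes, had at most 14.7 and 3.03 normalised counts in any library, and both were at 0 in knock-out 3. Spi1, which encodes PU.1, ranged from 203 to 1341, with 247 in knock-out 3. Gfi1, a granulocyte repressor gene, ranged from 74.5 to 268, and its highest value was that of knock-out 3 (next 253). Cebpa, Cebpe, Spi1 and Gfi1 were chosen for mention after their values were seen.

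Of 16 genes of the NADPH oxidase, peroxidases and their partners, 13 passed, 2 above and 11 below 0, with a median of -0.34 and 4 at an unadjusted p under 0.05. Prdx2, Prdx5 and Cyba led it, with log2 differences of -0.59, -0.70 and -0.61 (adjusted p = 0.201, 0.234 and 0.238 in limma). With the number sets as a covariate, limma called Prdx2 lower (adjusted p = 0.045). Cyba, an oxidase membrane subunit gene, was well detected (3476 ± 534 and 2394 ± 767). Of 25 related serine proteases and protease inhibitors, with cathepsins, 14 passed, 2 above and 12 below 0, with a median of -0.73 and 6 at an unadjusted p under 0.05. Serpinb1a, an inhibitor of the primary granule proteases, had 2812 ± 1204 and 1496 ± 290 (log2 difference -0.81, adjusted p = 0.176 in limma). The cathepsins Ctsz and Ctsl differed by -1.30 and -1.17 (adjusted p = 0.138 and 0.222 in limma), and Ctsl was called lower by limma with the number sets as a covariate (adjusted p = 0.049). Of 15 genes of iron and siderophore handling, 11 passed, 5 above and 6 below 0, with a median of -0.26 and 2 at an unadjusted p under 0.05. Ftl1, the ferritin light chain gene, had 34631 ± 8305 and 22487 ± 6866 (log2 difference -0.65, adjusted p = 0.238 in limma). Steap3, an iron reductase gene, differed by -1.81 and Tfr2, a transferrin receptor gene, by 0.40 (adjusted p = 0.258 and 0.428 in limma). Slc22a17, which encodes a lipocalin 2 receptor and was chosen for mention after its values were seen, ranged from 35.3 to 165 over the 11 libraries.

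Likeness of pattern was measured as Pearson's r of log2 levels over the 11 libraries, as a description. The tested genes most like the mean of S100a8 and S100a9 were Ddx19a (0.92), Mycn (0.92), Slc30a5 (0.92), Mtrr (0.92) and Gm20604 (0.89). All 5 were highest in knock-out 3, and without that library their r fell to 0.68, 0.78, 0.77, 0.80 and 0.60. Their size was smaller than that of the calgranulins: Mycn had 2531 normalised counts in knock-out 3 and at most 1285 elsewhere. Among those most like the mean of the primary granule genes (Mpo, Elane, Prtn3 and Ctsg) were Aarsd1, Gigyf1, Fes and Tcf7l1, each with r of 0.82. In that mean Ctsg had no read and Elane had reads in 3 libraries only. It thus follows in part which libraries held Elane reads, and is a weak measure of these genes together. The points share library and depth.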

How the data were processed

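RNA of 1000 sorted cells per mouse was amplified with the SMART-Seq v4 kit (13 to 18 PCR cycles) and made into Nextera XT libraries, per the labels' protocols. Amplification from so few cells makes low counts vary between libraries. The submitters' processing notes name Trimmomatic 0.36.6, FastQC 0.72, HISAT2 2.1.0, HTSeq 0.9.1, a DESeq2 wrapper (2.11.40.6) and the mm10 build, with no order or settings. The authors deposited a table of normalised counts, a signal that is a read count divided by a size factor. They also deposited rlog and VST values on a log2 scale, and a comparison table with log2 fold changes, a Wald score and p-values. Tables covered 11 of 12 labelled samples.

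The genes, lists and tests were chosen with earlier results of these data known. Genotypes were compared with limma 3.58.1 (R 4.3.3, trend, two-sided) on log2(normalised count + 1) of genes with at least 10 in at least 5 libraries (13358 of 43279), with Benjamini-Hochberg adjustment. Fold changes on this scale understate those of low genes. The normalised counts were whole multiples of 1 read in each library, so they were recovered (9.50 to 22.1 M reads per library, within 1.40e-09 of a whole number), and edgeR 4.0.16 (quasi-likelihood) and DESeq2 1.42.0 were run on them as alternatives. The count test edgeR called 2 genes and DESeq2 674. Each library came from a different mouse, so spread is between mice. On simulated data of this comparison, over 13358 genes, limma called 10 of 100 genes changed 2-fold and 44 of 100 changed 4-fold, and edgeR 9 and 45. Genes named in the text were the 10 genes, Osmr, called genes or the 3 of lowest p of each list, the 5 most alike genes of each pattern (1 of these is not reported here), nearest tested neighbours, gate markers and the leading genes of marker lists; others are said to be chosen after their values were seen. Motifs were searched in RefSeq promoters (GRCm38.p6), and positions and exon lengths came from GENCODE M21. The alternatives were other pseudocounts (0.5 and 10), filters (none and 50), scalings, deposited transforms, tools, a replicate block, a covariate for library numbers and each library left out.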

Additional observations from a re-analysis of the deposited data

Results flagged for a closer look

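A library was singled out where its gap to the next one, as a share of the group's range, passed Dixon's 95% limit (0.710 for 5 libraries, 0.625 for 6). This was so in 14 of 58 groups examined. For unselected normal values chance gives about 1 in 20, but the 10 genes were chosen with these values known and some had reads in 1 library of a group only, so the count is no test.

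Knock-out 3 stood apart from the other knock-outs for 6 of the 10 genes: S100a8 (10780 normalised counts), S100a9 (7277), Camp (5197), Ngp (1540), Lcn2 (516.8) and Ltf (51.6). The next knock-out had 346 for S100a8, 125 for S100a9, 84.0 for Camp, 60.3 for Ngp and 60.0 for Lcn2, and no Ltf read. No cause of these values was tested.

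Wild types stood apart from their group for Mpo (wild type 6, 129.3 normalised counts, next 62.6), S100a8 (wild type 3, 180.3, next 57.2), Ngp (wild type 2, 66.4, next 21.7) and Elane (wild type 5, 21.2, all others at 0). Among the other genes named, wild type 6 was apart for Myb (15045) and Meis1 (4200), wild type 3 for Steap3 (96.7), an iron reductase gene, and knock-out 2 for S100a4 (880.9).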

How the results depend on the processing

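Without knock-out 3 the S100a9 difference turned to -0.12. Within numbers 4 to 6, a set that does not contain knock-out 3, S100a9 and Camp turned to -1.07 and -0.23. The cause was not tested. Leaving out each library in turn gave log2 differences of -1.51 to -1.01 for Mpo, 0.29 to 0.42 for Prtn3, 0.52 to 2.77 for Camp, 0.68 to 3.07 for Ngp, 1.55 to 3.50 for S100a8 and -0.12 to 2.43 for S100a9. The count tools gave larger values for Camp (edgeR 5.16, DESeq2 5.17), S100a8 (5.24 and 5.25) and S100a9 (4.53 and 4.55), and the rlog values a smaller one for Mpo (-0.48).

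Over the whole table limma called 1 gene higher and 2 lower. Higher and lower counts were 13 and 42 with a pseudocount of 10, 0 and 0 without a filter or with a filter at 50, 14 and 42 with quantile scaling, 18 and 51 with rlog, 17 and 49 with VST, 238 and 436 with DESeq2, 133 and 204 with the number covariate, and 0 and 0 within numbers 1 to 3 and within 4 to 6. The lower count was 1 with a pseudocount of 0.5 and with edgeR. Leaving out each library gave 0 to 34 higher and 0 to 91 lower. In the 7 lists, 0 genes were called in the main comparison. DESeq2 called 3 higher and 5 lower, beside 4.27% of all genes with an adjusted p. The covariate gave 1 and 6, beside 2.52% of tested genes. Quantile scaling gave 2 lower, and leaving out libraries 0 to 2 higher and 0 lower. Of the named list genes, none reversed, and 18 values passed the threshold under an alternative. With label number as a replicate block, limma called 0 and 0 genes; same-numbered libraries correlated at 0.0203 to 0.0986 in their deviations, so the numbers were not taken as pairs.

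Depth and number of libraries limit what can be seen: Ctsg had no read, Elane, Lcn2 and Ltf had reads in at most 3 libraries and so did not pass the filter, and the 6 tested genes were described only. The scaling moved the median of all genes from -0.05 to -0.07 (TMM) or 0.02 (quantile).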
